A study of Rattus norvegicus with 6 samples.

Results

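The G1 cyclins, their kinases, the inhibitor p27 and the retinoblastoma protein RB were followed at the mRNA level in rat RA-FLS treated with TNF-α alone or with TNF-α and emodin (EMO). The members were 10 genes taken by symbol from the deposited table of 34156 genes, namely the D-type cyclins Ccnd1, Ccnd2 and Ccnd3, the E-type cyclins Ccne1 and Ccne2, the kinases Cdk2, Cdk4 and Cdk6, Cdkn1b, which encodes p27, and Rb1. RA-FLS are fibroblast-like synoviocytes, the cells that line the joint, here a commercial rat line labelled as wild type and rheumatoid arthritis, and therefore 1 source of cells. RNA-seq was performed on 6 libraries. The TNF-α group (n = 3) received 10 ng/mL TNF-α, a cytokine of the inflamed joint, and the TNF-α+EMO group (n = 3) received the same TNF-α together with 80 μmol/L EMO, an anthraquinone of rhubarb root. Both groups thus carried TNF-α, and untreated cells were not analysed here. The labels give day 5 as the time for every sample, whereas the methods of the study give 24 h of treatment. The methods of the study speak of 3 biological replicates per condition, while the labels do not say whether these were separate cultures, so a p-value measures the spread between these libraries.

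In the G1 phase, D-type cyclins are made in response to growth signals and bind CDK4 or CDK6. These kinases begin the phosphorylation of RB, a pocket protein that holds E2F transcription factors inactive, and cyclin E with CDK2 carries it further, so that E2F factors are freed to switch on the genes of DNA synthesis. p27 binds and inhibits cyclin E-CDK2 and also sits on cyclin D-CDK4 complexes. In the inflamed joint FLS multiply and thicken the lining, and TNF-α is one of the signals they meet there. Most of this control acts on proteins and phosphorylation, which mRNA counts do not measure.

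The libraries held 16813322 to 17794455 counts, and a gene absent from a library of this depth is bounded only at 3 counts, a limit that covers counting error alone. A gene was tested where 3 or more libraries held 10 counts or more of it (13614 genes), and it was called at an adjusted p under 0.05 (edgeR, quasi-likelihood F test, adjusted by Benjamini and Hochberg's method over these genes). A called gene with an absolute log2 fold change over 1 is a DEG. The contrast was broad, since 80.9% of all tested genes were called (39.4% higher and 41.4% lower with EMO) and 47.3% were DEGs. Of 14 FLS markers, 13 were in the table and 10 were tested, of which 9 were lower and 1, Dcn, higher with EMO. Dcn passed the filter through the TNF-α+EMO libraries only, and Fap and Lum, both lower, through the TNF-α libraries only. These calls were therefore fixed by the filter. The summed level of the FLS markers ranged from 212478 to 232484 normalized counts with TNF-α and from 35208 to 37875 with EMO. Thy1, Pdpn and Prg4, which also define these cells, had at most 7 counts in any library. Summed macrophage markers (2 of 7 tested, Cd68 higher and Cd14 lower) ranged from 1202 to 1305 with TNF-α and from 734 to 804 with EMO. The same sums were 69.2 to 76.5 and 13.2 to 21.7 for endothelial markers (1 of 5 tested, Vwf, lower, which passed the filter through the TNF-α libraries only). For epithelial markers (1 of 5 tested, Krt8, lower) they were 9950 to 10806 and 1968 to 2304, almost all of it Krt8. T cell markers summed to at most 4.90. Cd163, Kdr, Epcam and Cd3d, defining markers of those other cell types, were at 0 in all libraries. The part of these marker sums, which moved with the group, in the results on the G1 genes was not tested, and in bulk RNA fewer cells of a type and less RNA per cell cannot be told apart.

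All 10 G1 genes passed the filter and were called, 7 lower and 3 higher with EMO, against 41.4% and 39.4% of all tested genes. The lower genes were Ccnd1, Ccnd3, Ccne1, Ccne2, Cdk2, Cdk6 and Cdkn1b, and the higher genes were Ccnd2, Cdk4 and Rb1. As DEGs, 5 were lower and 2 higher (27.8% and 19.5% of all tested genes). The normalized counts of the groups did not overlap for any of the 10 genes, nor for 82.9% of all tested genes. The median log2 fold change (TNF-α+EMO over TNF-α throughout) of the 10 was -1.23, beside -0.01 for all tested genes. Ccnd2 passed the filter through the TNF-α+EMO libraries only and so had to differ, and its call is not counted as a result. Without it, 7 of 9 genes were lower and 2 higher (as DEGs 5 and 1), with a median of -1.84.

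**Figure D1:**
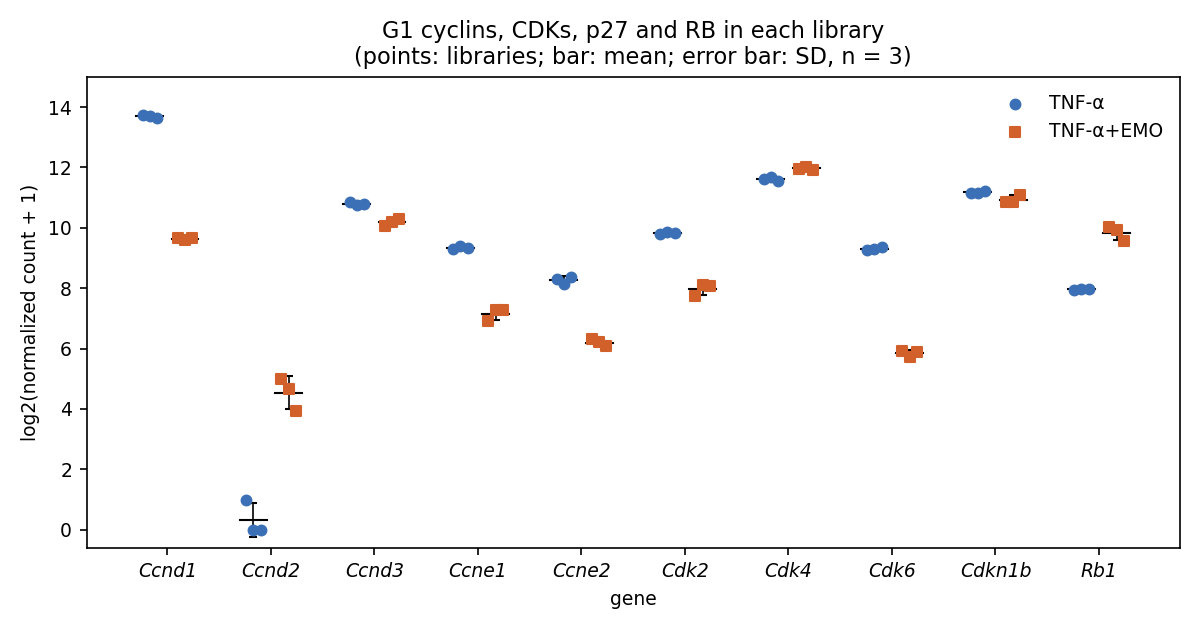
Normalized counts of each G1 gene in each library, plotted as log2(normalized count + 1) against gene, with blue circles for the 3 TNF-α and orange squares for the 3 TNF-α+EMO libraries, a bar for the mean and an error bar for the SD of these log2 values. The largest gaps between groups are seen for Ccnd1, Ccnd2 and Cdk6, and the smallest for Cdkn1b and Cdk4.

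Among the D-type cyclins, Ccnd1 fell steeply with EMO, Ccnd3 fell modestly and Ccnd2 appeared. Ccnd1 (ENSRNOG00000020918, chromosome 1, 218090750 to 218100325, minus strand, coordinates of Rnor_6.0 throughout unless another build is named), the D-type cyclin most often induced by growth factors, was counted 13988, 13797 and 12952 times with TNF-α and 790, 747 and 787 times with TNF-α+EMO. The highest EMO library lay far under the lowest TNF-α library. Scaled to a common library size, Ccnd1 went from 13264 ± 576 to 794 ± 26.2 normalized counts (SD, n = 3 each), 16.7-fold lower (log2 fold change -4.06, standard error 0.07, adjusted p = 3.6e-12). A larger absolute change was found in 8.60% of the tested genes. Per kb of transcript, which allows levels to be set against those of other genes, 2.59% of tested genes stood above Ccnd1 in the TNF-α group and 44.4% in the TNF-α+EMO group.

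Ccnd3 (ENSRNOG00000050258, chromosome 9, 15404822 to 15410943, minus strand), a D-type cyclin widely made in differentiated cells as well as cycling ones, had 1886, 1767 and 1832 counts with TNF-α and 1033, 1138 and 1234 with EMO. Every EMO library was below every TNF-α library, by a smaller step than for Ccnd1. The mean went from 1786 ± 63.4 to 1162 ± 95.8 normalized counts, 1.54-fold lower (log2 fold change -0.62, standard error 0.07, adjusted p = 1.5e-05). The median absolute log2 fold change of all tested genes was 0.957, so this change was smaller than that of most genes, and 65.8% of them moved further.

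Ccnd2 (ENSRNOG00000057710, chromosome 4, 159674885 to 159697207, minus strand), the third D-type cyclin, was all but absent with TNF-α, at 1, 0 and 0 counts, and had 30, 24 and 14 counts with EMO. The TNF-α group thus held a single count against 68 counts of the TNF-α+EMO group. No ratio, interval or p is given, since the filter fixed the difference and a single count cannot carry a fold. Even with EMO, Ccnd2 remained a low transcript at 16.4 ± 5.95 normalized counts per kb, and 83.0% of tested genes stood above it.

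The make-up of the D-type cyclin pool differed between the groups, as the plot of levels per kb shows. In normalized counts per kb, Ccnd1 made up 78.5%, 79.4% and 77.7% of the summed D-type cyclins with TNF-α and 26.6%, 23.9% and 23.6% with EMO, so that it was the larger part in every TNF-α library and in no TNF-α+EMO library. Ccnd3 went from 21.5% ± 0.837 to 73.3% ± 2.38 of the pool, although its own level fell, and Ccnd2 reached 2.01% ± 0.813. The mean share of Ccnd1 differed by -53.8 percentage points (two-sided exact permutation test, p = 0.1, the smallest that 3 against 3 libraries allow, and 0.133 after adjustment over 4 such tests). The pool itself went from 4357 ± 160 to 829 ± 42.8 normalized counts per kb, 5.25-fold lower. A share rests on counts of genes of different length, and without the length scale the share of Ccnd1 differed by -48.0 points.

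**Figure D2:**
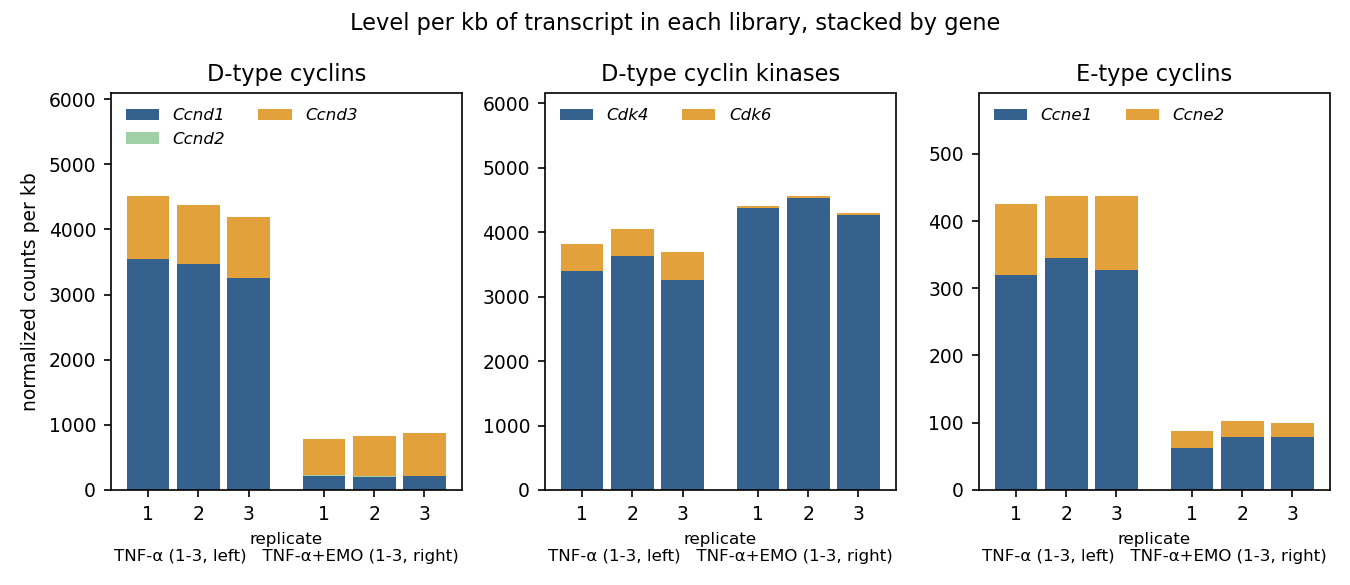
Normalized counts per kb of transcript in each library (x axis: replicates 1 to 3 of the TNF-α group on the left and of the TNF-α+EMO group on the right), stacked by gene, for the D-type cyclins, their kinases and the E-type cyclins, with a separate y axis starting at 0 in each panel. The D-type pool stands at a mean of 4357, mostly Ccnd1, with TNF-α and at 829, mostly Ccnd3, with EMO, the kinase pool is 99.1% Cdk4 with EMO, and the E-type pool stands at 433 and 96.6 with shares of Ccne1 that overlap between the groups.

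The partners of the D-type cyclins moved in opposite directions. Cdk4 (ENSRNOG00000025602, chromosome 7, 70349863 to 70352418, plus strand), the main D-type cyclin kinase of many tissues, had 3167, 3391 and 3045 counts with TNF-α and 3868, 4033 and 3820 with EMO. The EMO libraries were all higher, by a small step. Cdk4 went from 3127 ± 171 to 4003 ± 118 normalized counts, 1.28-fold higher (log2 fold change 0.36, standard error 0.06, adjusted p = 2.6e-04), and 79.7% of tested genes moved further. Its neighbour on the other strand, Tspan31, overlaps Cdk4 by 168 bases and was also higher (2382, 2151 and 2262 counts against 3380, 3613 and 3823, log2 fold change 0.74). The strand setting of the counting is not given in the sources used here, so reads from the shared bases cannot be told apart.

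Cdk6 (ENSRNOG00000009258, chromosome 4, 27785647 to 27966398, minus strand), the relative of Cdk4 that also phosphorylates RB, had 623, 646 and 669 counts with TNF-α and 58, 50 and 57 with EMO. The groups stood far apart and were each tight. Cdk6 went from 631 ± 20.3 to 56.3 ± 4.58 normalized counts, 11.2-fold lower (log2 fold change -3.48, standard error 0.11, adjusted p = 2.7e-10). Per kb, Cdk4 was the larger part of the pair in both groups, at 89.0% ± 0.740 with TNF-α and 99.1% ± 0.0887 with EMO, a difference of 10.1 percentage points (exact permutation test, p = 0.1, adjusted 0.133). Summed per kb, Cdk4 and Cdk6 went from 3850 ± 182 to 4426 ± 127 normalized counts per kb, 1.15-fold higher, because the gain of the abundant Cdk4 exceeded the loss of the scarcer Cdk6.

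For Cdk4 the promoter is shown because it was the only one of the 6 promoters held for these genes to carry the E-box CACGTG, the site that MYC with MAX can bind. In RefSeq sequence of the build GRCr8, windows from 250 bases before to 50 after the gene start were held for Ccnd3, Ccne1, Cdk2, Cdk4, Cdkn1b and Rb1. The E-box was found in 6.42% of 33469 such windows (its letters read the same on both strands), and Cdk4 held 3, with first bases 203, 183 and 95 bases upstream of the start. The motif was chosen after these windows had been read. Among genes of the wider pathway, read below, the E-box occurred in genes that fell (Cdk14, Cdk18, Mcm2 and Fen1) and in genes that rose (Ccnh, Cdk7 and Lin52). The 130 bases below span 211 to 82 bases upstream (chr7:64771242-64771371, plus strand), with the E-boxes in capitals. A match describes the letters and does not show binding.
Cdk4: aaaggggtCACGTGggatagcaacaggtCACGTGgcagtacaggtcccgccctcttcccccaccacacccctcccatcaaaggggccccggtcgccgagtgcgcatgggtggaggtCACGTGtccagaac

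Cyclin E genes and Cdk2, which act after the D-type cyclins, fell together. Ccne1 (ENSRNOG00000014786, chromosome 1, 94485832 to 94494980, minus strand) had 638, 690 and 657 counts with TNF-α and 117, 149 and 150 with EMO. Ccne2 (ENSRNOG00000008055, chromosome 5, 24434872 to 24446406, plus strand) had 323, 287 and 339 against 76, 71 and 65. In both genes the EMO libraries lay well below the TNF-α libraries, without overlap. Ccne1 went from 646 ± 24.1 to 142 ± 18.4 normalized counts, 4.55-fold lower (log2 fold change -2.19, standard error 0.11, adjusted p = 1.1e-08). Ccne2 went from 309 ± 26.1 to 72.4 ± 6.09, 4.27-fold lower (log2 fold change -2.09, standard error 0.14, adjusted p = 1.1e-07). Ccne2 shares 521 bases with Ints8 on the other strand, which was also lower (445, 452 and 402 counts against 221, 221 and 202, log2 fold change -0.94).

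For the E-type pool no difference in make-up was detectable with these libraries. Ccne1 made up 75.4%, 78.8% and 75.0% of the pool per kb with TNF-α and 70.5%, 76.5% and 78.1% with EMO, so that the groups overlapped. The mean share differed by -1.38 percentage points (exact permutation test, p = 0.8, and 0.8 after adjustment over 4 tests), within the spread of the libraries, and without replicate 1 of the TNF-α+EMO group it differed by 0.903 points in the other direction. The E-type pool went from 433 ± 6.81 to 96.6 ± 7.79 normalized counts per kb, 4.48-fold lower.

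Cdk2 (ENSRNOG00000006469, chromosome 7, 3124954 to 3132457, minus strand), the kinase of cyclin E, had 910, 950 and 924 counts with TNF-α and 207, 271 and 265 with EMO. All EMO libraries were low, with replicate 1 the lowest, as it was for Ccne1. Cdk2 went from 906 ± 17.7 to 254 ± 34.9 normalized counts, 3.57-fold lower (log2 fold change -1.84, standard error 0.10, adjusted p = 2.7e-08).

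The brakes of the pathway did not move together. Cdkn1b (ENSRNOG00000007249, chromosome 4, 168689163 to 168693964, plus strand) had 2313, 2325 and 2452 counts with TNF-α and 1788, 1789 and 2146 with EMO. The third EMO library came close to the TNF-α libraries, though the groups did not overlap. Cdkn1b went from 2308 ± 69.7 to 1954 ± 201 normalized counts, 1.18-fold lower (log2 fold change -0.24, standard error 0.08, adjusted p = 0.014), the smallest change of the 10 genes. This call rested on single libraries, as it was lost without TNF-α+EMO replicate 1 (-0.18, adjusted p = 0.062) or replicate 2 (-0.17, adjusted p = 0.11), and, with the tested genes held fixed, without TNF-α replicate 3 (-0.22, adjusted p = 0.062) or TNF-α+EMO replicate 2 (-0.20, adjusted p = 0.065).

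The D-type pool relative to Cdkn1b, a ratio taken within each library and so free of the scaling between libraries, was 1.80, 1.76 and 1.62 on the log2 scale with TNF-α and -0.41, -0.34 and -0.51 with EMO. D-type cyclin transcripts thus outnumbered p27 transcripts per kb in every TNF-α library and were fewer in every TNF-α+EMO library. The log2 ratio went from 1.73 ± 0.0942 to -0.42 ± 0.0852, a difference of -2.15 (exact permutation test, p = 0.1, adjusted 0.133).

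Rb1 (ENSRNOG00000016029, chromosome 15, 55083140 to 55209342, minus strand) rose more than Cdk4, from 247, 256 and 258 counts with TNF-α to 1009, 940 and 749 with EMO. The TNF-α libraries were nearly equal, and the EMO libraries varied more but were each well above them. Rb1 went from 248 ± 4.82 to 922 ± 143 normalized counts, 3.72-fold higher (log2 fold change 1.89, standard error 0.12, adjusted p = 5.6e-08). Lpar6, a receptor gene that lies inside Rb1 on the other strand, went the other way, with 50, 46 and 46 counts against 3, 0 and 0.

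The levels per kb put the members in a different order in each group. In the TNF-α group Cdk4 (3428 ± 188 normalized counts per kb) and Ccnd1 (3422 ± 148) stood at the top and their libraries overlapped. Below them came Cdkn1b (1315 ± 39.7), Ccnd3 (935 ± 33.2), Cdk6 (422 ± 13.6), Cdk2 (413 ± 8.09), Ccne1 (331 ± 12.4), Ccne2 (102 ± 8.62), Rb1 (79.2 ± 1.54) and Ccnd2 (0.231 ± 0.401). Besides the top pair, only the neighbours Cdk6 and Cdk2 overlapped in this order. In the TNF-α+EMO group the order was Cdk4 (4389 ± 130), Cdkn1b (1113 ± 115), Ccnd3 (608 ± 50.1), Rb1 (295 ± 45.8), Ccnd1 (205 ± 6.75), Cdk2 (116 ± 15.9), Ccne1 (72.7 ± 9.44), Cdk6 (37.7 ± 3.06), Ccne2 (23.9 ± 2.01) and Ccnd2 (16.4 ± 5.95), and only the neighbours Ccne2 and Ccnd2 overlapped. Rb1 thus stood second to last with TNF-α and above every cyclin but Ccnd3 with EMO.

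**Figure D3:**
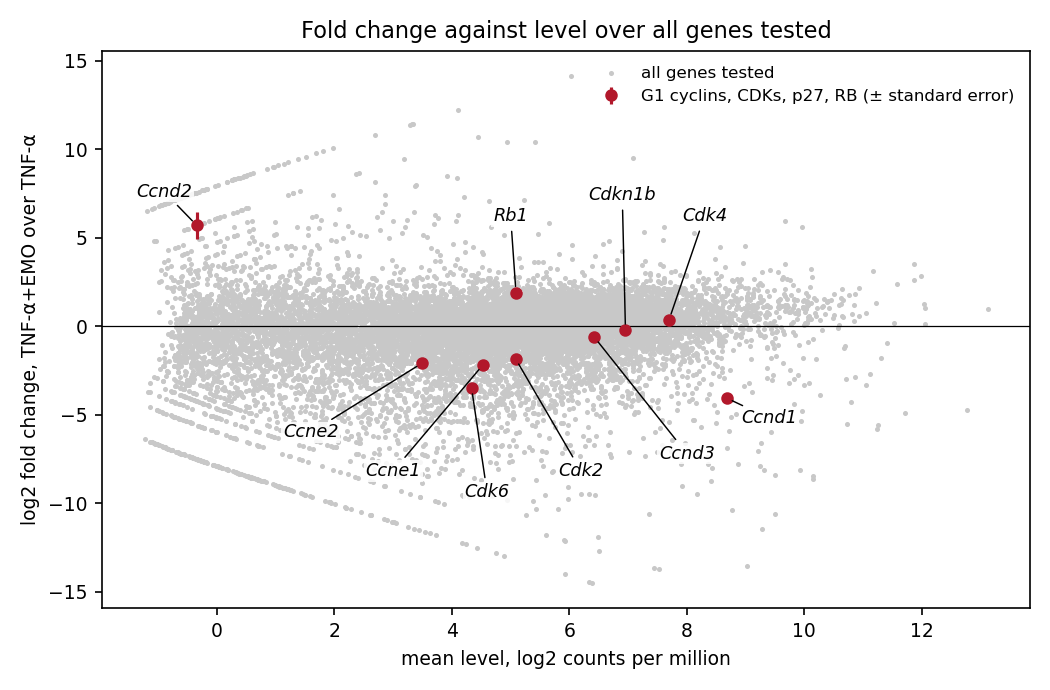
Log2 fold change (TNF-α+EMO over TNF-α) against mean level (log2 CPM, counts scaled to library size) for all 13614 genes tested (grey points), with the G1 genes in red and the standard error as error bars. Ccnd1 lies at -4.06 toward the abundant end of the levels, while Cdkn1b (-0.24) and Cdk4 (0.36) lie within the dense band and Ccnd2 lies at the low end of the levels.

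The wider pathway was read from 8 further lists of 87 genes, of which 79 were tested. Of these, 47 were lower, 27 were higher and 5 were not called, with a median log2 fold change of -0.84 beside -0.01 for all tested genes. Called lower were thus 59.5% of them, against 41.4% of all tested genes, and called higher 34.2%, close to the 39.4% of all tested genes. As DEGs, 35 were lower and 6 higher, against 27.8% and 19.5% of all tested genes. The lower genes include E2f7, E2f8 and Cdc6, which passed the filter through the TNF-α libraries only. The remaining 8 genes were not tested (Cdkn1c had at most 4 counts in any library and Cdkn2b 0) or not analysed here (Cdkn2d, E2f1, Ccnb2, Ccnl1, Ccnl2 and Cdk8).

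Of the other CDK inhibitors, 3 of 6 were tested, 1 higher, 1 lower and 1 not called (median -0.74), where 39.4% of all tested genes were higher and 41.4% lower. Cdkn1a, which encodes p21, an inhibitor of CDK2 and a well-known p53 target, had 846, 825 and 849 counts with TNF-α and 10016, 10415 and 13247 with EMO. It rose in every EMO library, 14.0-fold in the mean (log2 fold change 3.81, standard error 0.11, adjusted p = 1.5e-10). Cdkn2c, whose product p18 inhibits CDK4 and CDK6, had 558, 530 and 533 counts with TNF-α and 20, 31 and 30 with EMO, 19.1-fold lower (log2 fold change -4.25, standard error 0.16, adjusted p = 7.9e-10). Cdkn2a, at 13, 9 and 15 against 11, 2 and 8 counts, was not called (log2 fold change -0.74, standard error 0.54, adjusted p = 0.226). Beside Cdkn1b (-0.24), the inhibitors thus included a gene that rose steeply and one that fell steeply.

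The relatives of RB went against Rb1. Rbl1 (p107) had 385, 410 and 379 counts with TNF-α and 132, 102 and 88 with EMO (log2 fold change -1.80, standard error 0.15, adjusted p = 8.8e-07). Rbl2 (p130) had 1033, 1122 and 995 against 451, 507 and 430 (log2 fold change -1.11, standard error 0.09, adjusted p = 5.5e-07). Both pocket protein genes were lower in every EMO library, while Rb1 was higher. In the list of RB relatives and DREAM complex, the repressor that p107 and p130 form in resting cells, 3 of 7 were higher and 3 lower, with a median of 0.19. At 42.9% in each direction these shares lie near those of all tested genes (39.4% higher and 41.4% lower), and the counts say nothing particular about the list. Lin9 was lower (-1.86) and Lin37 (1.54), Lin52 (0.96) and Rbbp4 (0.54) were higher, whereas Lin54 was not called (0.19, adjusted p = 0.094).

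Among the E2F and DP factors, 9 of 10 were tested, 7 lower (77.8%, against 41.4% of all tested genes), 1 higher (11.1%, against 39.4%) and 1 not called (median -1.94). The repressors E2f7 and E2f8, themselves known E2F targets, fell most, E2f7 from 339, 340 and 338 counts to 8, 9 and 4, and E2f8 from 395, 388 and 418 to 2, 2 and 7 (log2 fold changes -5.50 and -6.66). Both passed the filter through the TNF-α libraries only and so had to differ. No p is given for them, though they are among the 7 counted as lower. The activators E2f2 (-2.71) and E2f3 (-0.67) and the factor E2f5 (-1.94), a partner of p130, were lower. E2f4, the main E2F of resting cells, was the only higher one, with 838, 849 and 898 counts against 1256, 1419 and 1305 (log2 fold change 0.69, standard error 0.07, adjusted p = 5.2e-06). E2f6 was not called (-0.14, adjusted p = 0.127). The dimer partners Tfdp1 (-1.42) and Tfdp2 (-2.62) were both lower.

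Genes that RB and E2F control were nearly all lower. Of 20 such genes, 19 were lower, 0 were higher and 1 was not called by edgeR, with a median of -2.53. The lower genes were 95.0% of the list, against 41.4% of all tested genes, and 39.4% of all tested genes were higher. Cdc6, which loads the replicative helicase, went from 937, 937 and 941 counts to 3, 7 and 2 (log2 fold change -7.76, standard error 0.19). It passed the filter through the TNF-α libraries only and so had to differ. No p is given for Cdc6, though it is among the 19 counted as lower. Tk1, a thymidine kinase of S phase, went from 3188 ± 80.4 to 106 ± 18.2 normalized counts (-4.91). Tyms, which makes thymidylate, stood apart with 1081, 1169 and 1120 counts against 1087, 1037 and 1057 (log2 fold change -0.01, standard error 0.07, adjusted p = 0.852). Its libraries overlapped between the groups. The cyclins of the later phases and their kinase were lower in 4 of 4 tested (41.4% of all tested genes were lower), with a median of -4.85, among them Ccna2 (-6.02), Ccnb1 (-5.48) and Cdk1 (-4.21).

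E2F sites were looked for in the same promoter windows, a search that had been planned for the promoters of the G1 genes. The letters TTTCCCGC, TTTGGCGC, TTTCGCGC or TTTGCCGC, read on both strands, occurred in 2.14% of the 33469 windows, in 10 of the 18 windows held for the E2F target list, and in 1 of the 6 windows held for the G1 genes, that of Rb1. Among the 7 windows of the RB relatives and DREAM complex, 2 held one, those of Rbl1 and Lin52. The 6 sequences below each show 30 bases of GRCr8 around a site, written along the gene's own strand with the site in capitals, to set genes with a like site and unlike changes side by side. Rb1 rose, Rbl1 fell and Tyms was not called, and Mcm3, Mcm6 (helicase subunits) and Uhrf1 (which keeps DNA methylation at replication) are the genes with such a site that fell furthest in the target list, chosen after their values were seen.
Rb1 (chr15:54911837-54911866, minus strand): ggaagtgacgtTTTCCCGCggttggcccgg
Rbl1 (chr3:166289376-166289405, minus strand): aagtaggcgatTTTCGCGCgctttgtcgcg
Tyms (chr9:120776102-120776131, minus strand): aaggtgcgggtTTTGGCGCcgactacactg
Mcm3 (chr9:30733734-30733763, minus strand): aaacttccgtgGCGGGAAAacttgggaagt
Mcm6 (chr13:42404473-42404502, minus strand): tggcgtctgctTTTGGCGCgaaattagcgt
Uhrf1 (chr9:1223076-1223105, plus strand): cccgagtcgggTTTCGCGCgccctggcgtc

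Some of these windows held more than the site shown. That of Mcm3 also held TTTCGCGC from base 14 (counted from 1 at the start), and that of Uhrf1 TTTCCCGC on the other strand, 193 bases upstream. That of Mcm6 held TTTCGCGC on the other strand, 135 bases upstream. This site overlaps the one shown and lies within the printed stretch. TTTCGCGC thus occurred in the windows of Rbl1, Uhrf1, Mcm3 and Mcm6, TTTGGCGC in those of Mcm6 and Tyms, and TTTCCCGC in those of Rb1 (from base 3), Mcm3 and Uhrf1. The log2 fold changes of Mcm3, Uhrf1 and Mcm6 were -3.40, -3.36 and -2.92. A site describes these letters only, and its absence from a window says nothing of the factor.

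In the list of CDK activation, 4 of 7 were higher (57.1%, against 39.4% of all tested genes) and 3 lower (42.9%, near the 41.4% of all tested genes), with a median of 0.54. The CDK-activating kinase, which phosphorylates the CDKs, had both Cdk7 (0.96) and its cyclin Ccnh (1.72) higher, while the phosphatase gene Cdc25c, which acts at mitosis, was lower (-1.91). Of the G1 ubiquitin ligase genes, which remove cyclins and p27, 6 of 11 were higher (54.5%, against 39.4%) and 5 lower (45.5%, near 41.4%), with a median of 0.21. Skp2, the receptor that marks p27 for destruction, went from 261, 238 and 250 counts to 41, 34 and 40 (log2 fold change -2.63, standard error 0.16, adjusted p = 4.8e-08). Fbxo4, linked to cyclin D1 turnover, was higher (1.46), and Usp2, a deubiquitinase of cyclin D1, was lower (-1.09).

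The cyclins and CDKs of transcription and other tasks had 12 of 18 higher (66.7%, against 39.4% of all tested genes), 5 lower (27.8%, against 41.4%) and 1 not called (median 0.42), a difference from all genes that was not tested. Ccng1, a p53 target, rose from 3712 ± 223 to 34209 ± 4009 normalized counts, 9.21-fold (log2 fold change 3.20, standard error 0.09, adjusted p = 1.5e-10). Cdk14, a membrane-bound kinase of WNT signaling, fell by 2.77 on the log2 scale, and Cdk19, a Mediator kinase, fell by 1.41.

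**Figure D4:**
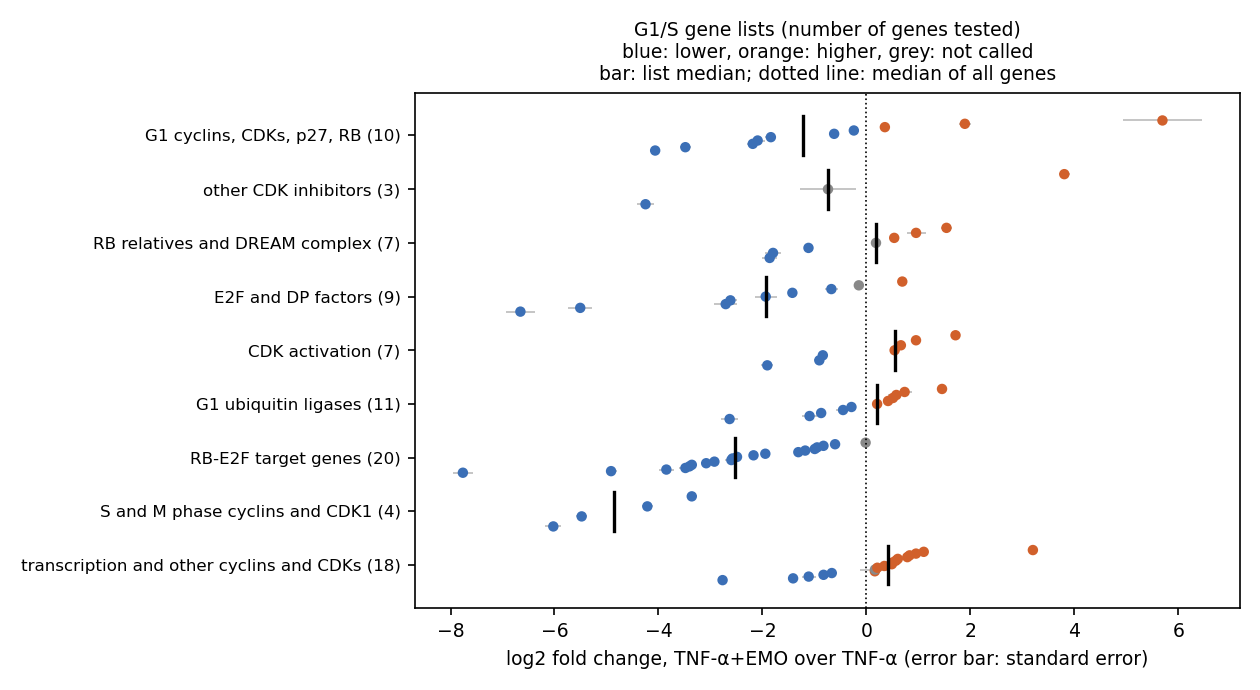
Log2 fold change (TNF-α+EMO over TNF-α, x axis) of every tested gene in the G1 set and the 8 further lists, with the number tested in brackets, the standard error as error bar, a black bar for the list median and a dotted line for the median of all tested genes. The E2F target list (median -2.53) and the S and M phase cyclins (-4.85) lie to the left of 0, with Tyms alone at 0, while the list of transcription and other cyclins and CDKs has its median at 0.42.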

How the data were processed

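Poly(A)-selected paired-end libraries of 6 samples were sequenced. The counting program and its strand setting are not given in the sources used here. Per the labels' processing notes the authors used FastQC, Trimmomatic and HISAT2 with Rnor_6.0. The authors deposited raw counts per gene, gene lengths and FPKM, which scales counts by length and depth. FPKM served only as an alternative scale for shares and ratios within a library. It rests on the same gene lengths, so these could not differ from those of normalized counts per kb.

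Counts were fitted with edgeR 4.0.16 in R 4.3.3 (TMM, robust quasi-likelihood, group as the only term). The fit was checked on simulated data in which 200 genes were changed, with a common dispersion for all genes. In the data 80.9% of tested genes were called, so the check does not cover a contrast this broad. The standard error is the absolute log2 fold change divided by the square root of F. Normalized counts are scaled to the mean TMM library size. Exact permutation tests used scipy 1.17.1. No column of another series was used.

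The members and lists were chosen with earlier results of these data known. Named are the 10 members, up to 3 genes per further list with the largest change (called, mean of at least 100 counts, no overlap), and every tested CDK inhibitor, pocket protein and E2F. Other genes of the lists, such as those whose sequence is shown, were named after their values were seen. The values of 1 gene that this rule names are not reported here. Promoters are RefSeq's (GRCr8). The cyclin and p27 proteins were not used here.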

Additional observations from a re-analysis of the deposited data

How the results depend on the processing

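The 10 members were refitted with DESeq2 1.42.0, other scalings, other filters, the replicate block and without each library, 186 fits in all, of which 182 kept direction and call, 4 lost the call (all of Cdkn1b) and 0 reversed. The 182 include 15 fits of Ccnd2, whose call is not counted as a result. Leave-one-out fits on fixed genes, the lists at DEG level and the D-type share without Ccnd2 were chosen after seeing the data. Ccnd2 was not tested at 50 counts or more, nor by the usual filter when a TNF-α+EMO library was left out. A further 34 genes were refitted, those of the naming rule and every other tested RB relative, DREAM gene and E2F or DP factor. Of their 633 fits, 628 were unchanged and 5 gained a call, those of Lin54 and E2f6. The 34 include E2f7, E2f8 and Cdc6, which passed the filter through the TNF-α libraries only. Above an absolute log2 fold change of 2, the members called were 1 higher and 4 lower. The higher gene was Ccnd2, whose call the filter fixed. The share of all tested genes above 2 is not given here, so this count is not read as a result about the members. Above 1, 6 genes of the further lists were higher and 35 lower (19.5% and 27.8% of all tested genes). Without single libraries the difference in the share of Ccne1 ranged from -2.94 to 0.903 percentage points, the latter without TNF-α+EMO replicate 1. Scaling to library totals moved the median log2 fold change of all genes from -0.01 to -0.12, and Cdk4 then remained higher (0.24). Same-numbered libraries correlated at 0.020, -0.0038 and 0.062 in their deviations, so no pairing by number was seen. Cultures set up in pairs with a small shared effect could look the same, so pairing is not excluded. With the replicate number as a block, 5266 genes were called higher and 5540 lower in place of 5366 and 5642, and the log2 fold change of Cdkn1b was -0.24 (adjusted p = 0.010). At this depth, a gene with under 10 counts in 4 libraries, such as Cdkn2b and Cdkn1c, was not tested, and 3 libraries a group cannot give a permutation p under 0.1.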
